A study of Mus musculus with 6 samples.

Results

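The 77 genes described here carry the symbols of cytosolic ribosomal proteins, of which 76 are annotated as protein-coding and 1, Rps4l, as a transcribed processed pseudogene. They were followed in NMuMG cells, an epithelial line from the mouse mammary gland, during exposure to TGF-β with or without 2APB. The cells received the vehicle DMSO (2 libraries), TGF-β at 5 ng/ml (2 libraries), or TGF-β at 5 ng/ml together with 50 uM 2APB (2 libraries, also called the combination). All of them had been serum-starved for 4 h, and the treatment lasted 24 h. Whether 2APB was added with TGF-β or before it is described in different ways in the sources. TGF-β is a cytokine that drives the epithelial-mesenchymal transition (EMT), and 2APB is an inhibitor of store-operated calcium entry. Cells given 2APB alone were not analysed here, so that values for 2APB always include TGF-β. Poly(A) RNA was sequenced as single-end reads of 50 bases. The values are raw counts per gene for 18512 entries, with a total of 71840570 to 79473182 counts per library. Every value was even, so that the counts may have been doubled before deposit, which no source used here states. If they were, the totals would be 35920285 to 39736591, and all counts given here would be halved in the same way.

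Genes were taken as members when the symbol was Rpl or Rps with a number and at most one of the letters a, x, y or l, or was Rplp0, Rplp1, Rplp2 or Rpsa, and when the mean raw count over the 6 libraries was at least 20. Of 80 matching symbols, 77 reached this mean, 45 for proteins of the large (60S) subunit and 32 for proteins of the small (40S) subunit. The member just inside the bound was Rps4l with a mean of 23.0 counts, and the gene just outside was Rpl3l with 8.67 counts. With halved counts Rps4l would have a mean of 11.5 and fall outside, while the other 76 would remain. Rpl26 (a mean of 1 count) and Rpl39l (1.33 counts) were also left out. All 77 were among the 13353 genes that entered the test, which required a mean normalized count of 20 or more.

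Ribosomes translate mRNA into protein, and each cytosolic ribosome carries a single copy of nearly every ribosomal protein, so the genes are expressed at high and matched levels in growing cells. The large subunit joins the amino acids and holds the tunnel through which the new chain leaves, while the small subunit reads the mRNA. In vertebrates the mRNAs of ribosomal proteins begin with a C followed by a run of pyrimidines, the 5' terminal oligopyrimidine (TOP) motif, through which the mTOR pathway controls their translation. A change in translation of these mRNAs need not appear in their RNA level, which is the quantity measured here.

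The start sites of the members are shown first, because the TOP motif is the sequence feature that these genes are known to share. RefSeq promoter entries of GRCm38.p6, from 250 bases before to 50 bases after the annotated start, were matched by symbol for 56 of the 77 members. At the annotated start itself, a C followed by at least 4 pyrimidines stood in 13 of these 56 members (23.2%), against 3.01% of the 27025 genes in the promoter table and 2.99% of the genes tested for expression. A feature was counted where any entry of a gene held it, and 9 members had more than 1 entry. In the windows below, which cover 20 bases before the start and the first 10 bases of the transcript, capitals mark every run of 5 or more pyrimidines. Members with the run at the start (Rpl28, Rps6, Rpl14, Rpl35, Rplp2 and Rps18) are followed by Rplp0, Rps2 and Rpl22, whose annotated starts lack it. Rpl22 has 2 entries, and the one shown starts 16 bases before the annotated gene and holds no run of 5, whereas the other lies 1290 bases further upstream.
Rpl28 (chr7:4792945-4792974, plus strand): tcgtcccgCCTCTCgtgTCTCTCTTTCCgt
Rps6 (chr4:86857358-86857387, minus strand): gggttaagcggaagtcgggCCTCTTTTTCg
Rpl14 (chr9:120571497-120571526, plus strand): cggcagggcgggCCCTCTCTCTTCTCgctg
Rpl35 (chr2:39005122-39005151, minus strand): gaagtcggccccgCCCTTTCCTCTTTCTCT
Rplp2 (chr7:141447631-141447660, plus strand): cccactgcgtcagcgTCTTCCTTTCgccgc
Rps18 (chr17:33955656-33955685, minus strand): acttatacgtcaCTTCCgCTCTCTCTTCCa
Rplp0 (chr5:115559447-115559476, plus strand): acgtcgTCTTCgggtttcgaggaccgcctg
Rps2 (chr17:24720043-24720072, plus strand): tgcgtaggcagtcgagatctcgcgCTTCTT
Rpl22 (chr4:152325706-152325735, plus strand): ccgacttcgccctgggaaaagcaatagctg

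A run of at least 7 pyrimidines within 20 bases of the start was found in 36 of the 56 matched members (64.3%) and in 33.7% of all genes of the table (33.2% of those tested). Among short motifs searched on both strands of the whole entry, CCGGAAG, the core letters bound by ETS factors, occurred in 23 of 56 members (41.1%), against 9.93% of all genes and 19.3% of the genes tested for expression. CTCGCGAG occurred in 6 members (10.7%), against 1.04% of all genes and 2.05% of those tested. AAGATGGC was present in 5 members (8.93%) and in 3.19% and 5.21%. For 2 motifs the direction depended on the genes compared. TATAAA occurred in 6 members (10.7%), below the 15.7% of all genes and above the 9.19% of those tested. GGGCGG occurred in 35 members (62.5%), above the 38.2% of all genes and below the 67.1% of those tested. The reverse complement of CCGGAAG contains a run of 5 pyrimidines, so that it can overlap the pyrimidine runs, and a match is a description of these letters only.

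As a group, the members stayed close to their level in DMSO after TGF-β and stood higher after TGF-β+2APB. They took 4.64% and 4.52% of all counts under DMSO, 5.03% and 4.52% under TGF-β alone, and 5.13% and 5.27% under the combination. The lower TGF-β library lay within the DMSO values, while both TGF-β+2APB libraries lay above the other 4. The mean share was 4.58% ± 0.09 in DMSO, 4.77% ± 0.36 with TGF-β and 5.20% ± 0.10 with TGF-β+2APB (SD, n = 2 each), and no test was run on these shares. The 60S members held 2.78% to 3.25% of the counts in a library and the 40S members 1.74% to 2.02%, and the ratio between them ran only from 1.57 to 1.62.

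**Figure D1:**
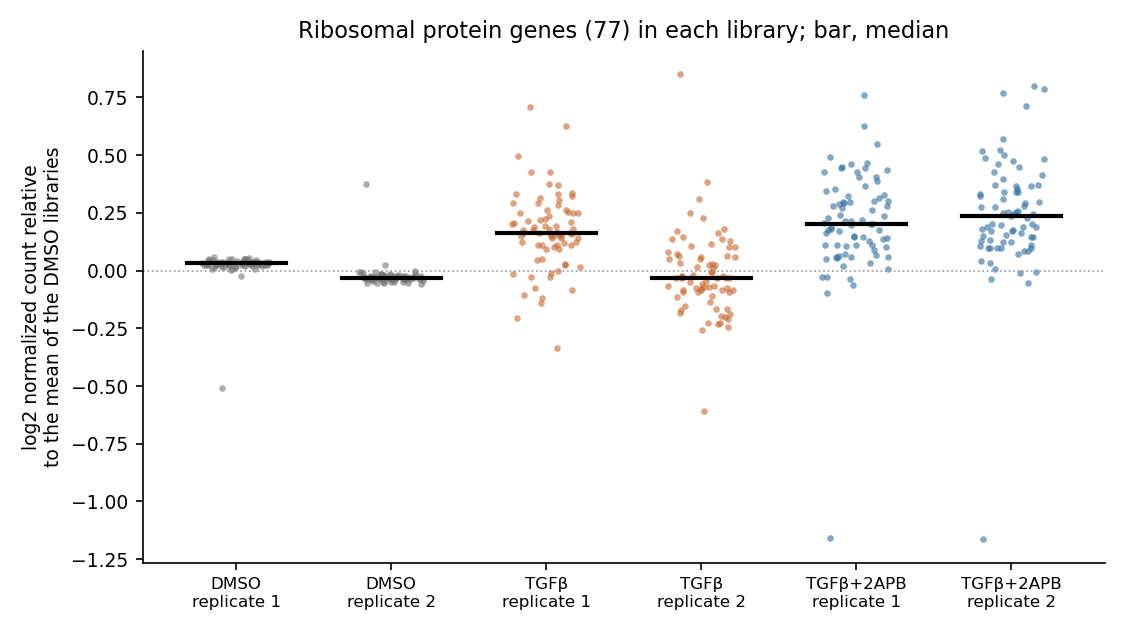
Log2 normalized count of each of the 77 ribosomal protein genes relative to its mean in the DMSO libraries (vertical axis), in the 6 libraries (horizontal axis); each point is a gene and each bar the median of a library. The bars stand at 0.16 and -0.03 in the TGF-β libraries and at 0.20 and 0.23 in the TGF-β+2APB libraries.

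The replicates of TGF-β differed from each other over most members. In replicate 2 the level was lower than in replicate 1 for 71 of 77 members, with a median log2 difference of -0.21, while the median over all tested genes was -0.08. The corresponding median over members was -0.06 in DMSO, where 75 members were lower in replicate 2, and 0.03 in TGF-β+2APB, where 54 were higher. The spread within TGF-β was thus larger than the median change from DMSO to TGF-β given below.

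The libraries were also compared for markers of other cells, on normalized counts scaled to the mean library. Krt8 and Krt18, keratins of simple epithelia, were abundant in all libraries, with at least 161005 counts, whereas Epcam stood at 50.6 to 163 counts. The 7 epithelial markers in the table moved both ways, with 3 called higher and 3 lower with TGF-β, and 4 higher and 3 lower with TGF-β+2APB over DMSO. Krt8 had 252654 and 234425 counts under DMSO and 729306 and 700430 under the combination, and Cldn4, a tight junction protein, had 2 and 6.2 and then 2087 and 1529. Krt19 had 45112 and 42138 counts under DMSO and 1687 and 3441 under the combination, and Cdh1 (E-cadherin) had 91180 and 90601 and then 35058 and 41060. TGF-β+2APB replicate 2 stood apart for immune cell markers, of which 5 of the 6 listed genes were in the table. Their summed level was 2399 in that library and 178 to 704 in the other 5, with Ptprc (CD45) at 742 and at 35.6 to 220. The T cell marker Cd3e was at 0 in the other 5 libraries. Endothelial markers summed to 9.83 to 49.3 and adipocyte markers to 0 to 165. Of 6 hepatocyte markers, Alb stood at 31570 and 28821 in DMSO and at 19.7 to 93.5 in the treated libraries, while the list's sum, held mostly by Apob, ran from 199367 to 592699. In bulk RNA, fewer cells of a type and less RNA per cell cannot be told apart. The part of these markers in the results for ribosomal proteins was not tested, but results without TGF-β+2APB replicate 2 are given beside the comparisons it enters.

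Levels of the members per kilobase of the longest annotated transcript spanned a wide range. The highest were Rplp1 (176295 normalized counts per kb, mean of 6 libraries) and Rplp0 (138846 per kb), which encode proteins of the stalk that recruits the elongation factors. They were followed by Rps2 (113669 per kb), Rps4x (102474 per kb) and Rpl23a (91569 per kb). At the other end stood Rps4l (24.4 per kb), Rpl30 (37.6 per kb), Rpl34 (206 per kb) and Rps27 (243 per kb). The next lowest, Rps15a, had 5715 per kb over an annotated transcript of 5179 bases, so these 4 were separated from the other 73 members.

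Rpl30, Rpl34 and Rps27 stood far below the other protein-coding members. Per kilobase of the reference transcript, the shortest principal coding transcript of the GENCODE annotation, they still had only 159, 530 and 474 normalized counts. Ribosomal protein genes have many processed pseudogenes, and 44 of the 76 members with a reference transcript shared 50% or more of their 50-base windows exactly with another annotated gene. Rps27 shared 98.6% of its windows with 9 genes, Rpl30 76.4% with 17 genes and Rpl34 50.6% with 9 genes. Rpl35 shared 95.1% and Rpl5 93.8%, and their mean raw counts were 31268 and 83288. The part of shared sequence in the low levels was not tested, and how reads with several alignments were counted is not given in the sources used here. The values of members that share sequence are therefore uncertain in level.

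**Figure D2:**
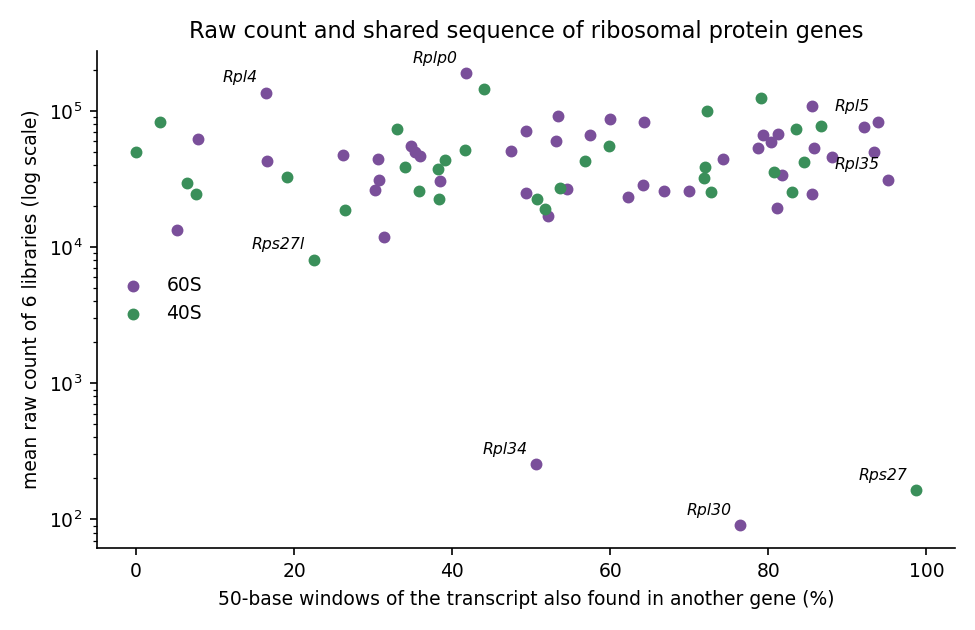
Mean raw count of 6 libraries (vertical axis, log scale) against the percentage of 50-base windows of the reference transcript that also occur in another annotated gene (horizontal axis), for 76 members coloured by subunit. Rpl30, Rpl34 and Rps27 lie lowest at 76.4%, 50.6% and 98.6%, while Rpl35 and Rpl5 lie near the right edge at high counts.

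TGF-β alone raised few ribosomal protein genes. The quasi-likelihood test of edgeR was run on 13353 genes, and a gene was called where its Benjamini-Hochberg FDR did not exceed 0.05. By this rule 6 of 77 members (7.79%) were higher with TGF-β than in DMSO, against 21.8% of all genes tested, and 1 member (1.30%) was lower, against 19.7% of all genes. The median log2 fold change was 0.08 for the members, 0.09 for 60S and 0.07 for 40S, and -0.01 for all genes. Over the 3688 other genes with a mean normalized count of 5000 or more it was 0.06, near that of the members. The members varied little, since 75 of 77 changed by less than 0.5 on the log2 scale, compared with 62.0% of all genes. The SD of their log2 fold changes was 0.16, against 1.36 over all genes and 0.79 over the 3688 abundant genes. Both TGF-β libraries lay above both DMSO libraries for 24 members (31.2%), compared with 36.0% of all genes.

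Rpl28, a 60S protein, had 37229 and 35571 normalized counts under DMSO, 59466 and 47445 under TGF-β alone, and 61738 and 63339 under the combination. The DMSO values did not overlap those of either treatment. Its log2 fold change was 0.55 ± 0.12 (SE, FDR 0.0126) with TGF-β, a 1.47-fold rise, and at the same FDR it was called under all 12 other settings that keep every library.

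Rpl7, also of the 60S subunit, had 74900 and 71860 counts under DMSO, 91659 and 91088 under TGF-β alone, and 113263 and 105071 under the combination. The 3 groups did not overlap, and the change with TGF-β was 0.32 ± 0.067 (FDR 0.0137). Rps2, a 40S protein at the site where mRNA enters, had 103222 and 99621 counts under DMSO and 142909 and 118675 under TGF-β alone. Both TGF-β libraries were higher, although they differed from each other by more than the DMSO libraries did, and the change was 0.37 ± 0.10 (FDR 0.0312).

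Rpl34, one of the low members, had 185 and 176 counts under DMSO, 279 and 326 under TGF-β alone, and 250 and 312 under the combination. It showed the highest fitted change with TGF-β, 0.75 ± 0.19 (FDR 0.0259). Rpl35, next to the exit of the peptide tunnel, rose by 0.22 ± 0.067 (FDR 0.0454). Rps23, which lies at the decoding center, also rose by 0.22 ± 0.067 (FDR 0.0475). Rpsa, a 40S protein at the mRNA exit, is also known as the laminin receptor. It had 127009 and 121827 counts under DMSO and 167151 and 137557 under TGF-β alone. Its change of 0.29 ± 0.10 did not pass (FDR 0.0677).

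Rpl22, an RNA-binding protein of the 60S subunit, was the member that fell with TGF-β. It had 14470 and 13844 counts under DMSO, 12272 and 12042 under TGF-β alone, and 13576 and 13649 under the combination, so that the TGF-β libraries were the lowest. The change with TGF-β was -0.22 ± 0.066 (FDR 0.0426). The other members with the most negative changes were Rps4l (-0.48 ± 0.33, FDR 0.299), Rps21 (-0.17 ± 0.085, FDR 0.170), Rpl39 (-0.15 ± 0.079, FDR 0.187) and Rpl17 (-0.12 ± 0.063, FDR 0.180), and none of them was called.

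The outcome with TGF-β rested on which of its replicates was kept. Without TGF-β replicate 2 the median log2 fold change of the members was 0.16, whereas without replicate 1 it was -0.02. Rpl34 lost its call without TGF-β replicate 2. The calls also differed over the 12 other settings that keep every library, at the same FDR. Rpl28, Rpl7 and Rpl34 were called in all 12, Rps2 in 11, Rpl35 and Rps23 in 7, and Rpl22 in 6. No member was called without either DMSO library, and only Rpl28, Rpl34 and Rpl7 without either TGF-β+2APB library, which does not enter this contrast but gives part of the estimate of the spread.

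**Figure D3:**
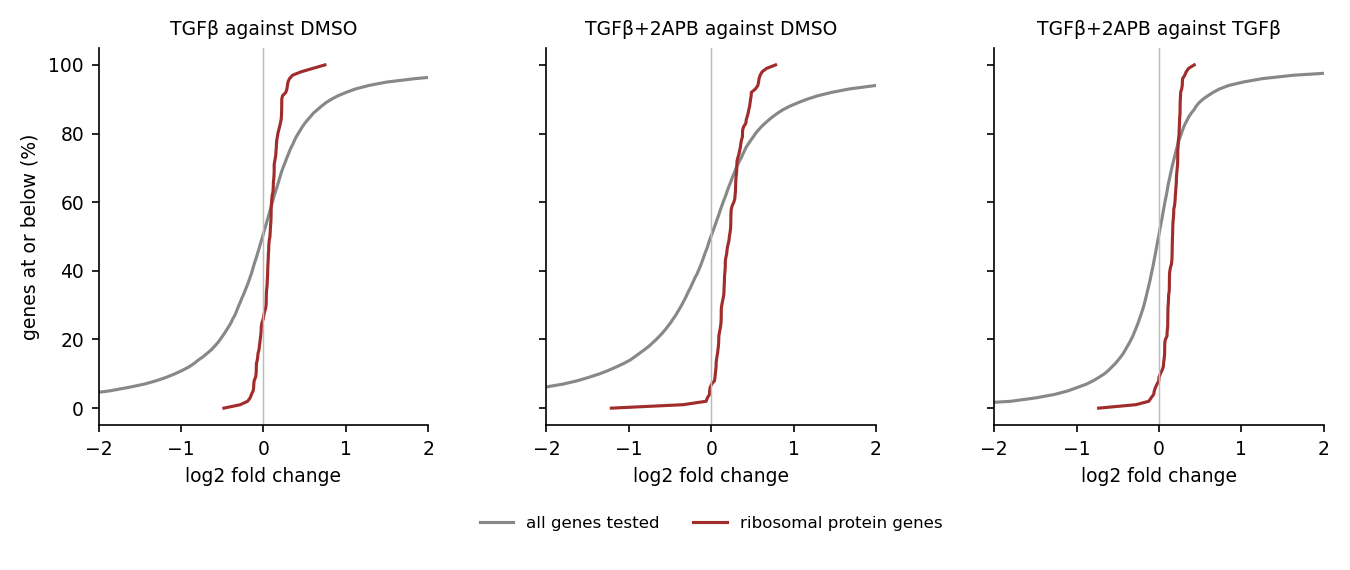
Percentage of genes (vertical axis) at or below a given log2 fold change (horizontal axis, shown from -2 to 2) for the 77 ribosomal protein genes and for all 13353 genes tested, in the 3 comparisons. The curve of the ribosomal protein genes is steep, with medians of 0.08, 0.22 and 0.16 from left to right.

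With TGF-β+2APB, more ribosomal protein genes were above DMSO. The count was 30 of 77 members higher (39.0%), against 25.6% of all genes, and 1 lower (1.30%), against 27.2% of all genes. The rises were found in both subunits, in 17 of 45 members of 60S and 13 of 32 of 40S. The median log2 fold change was 0.22, with 0.22 for 60S and 0.23 for 40S, and it was -0.0033 over all genes. Over the 3688 other genes of high abundance, whose mean normalized count was 5000 or more, the median was 0.08. The fold change was positive for 71 members, and both TGF-β+2APB libraries lay above both DMSO libraries for 68 of 77 (88.3%), compared with 42.3% of all genes. The changes were small, under 0.5 on the log2 scale in 70 of 77 members.

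Rpl28 showed the highest change in this comparison, 0.78 ± 0.12 (FDR 0.0026), or 1.72-fold, and Rpl7 rose by 0.57 ± 0.067 (FDR 0.0011). Rpl34 was 0.64 ± 0.19 above DMSO (FDR 0.0345). The other low members had wide errors. Rpl30, with 51.1 and 95.0 counts under DMSO and 101.0 and 120.4 under the combination, changed by 0.60 ± 0.36 (FDR 0.212). Rps27, with 134 and 138 counts under DMSO and 174 and 233 under the combination, changed by 0.58 ± 0.25 (FDR 0.0983). The libraries of the groups did not overlap for either gene, but neither was called.

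**Figure D4:**
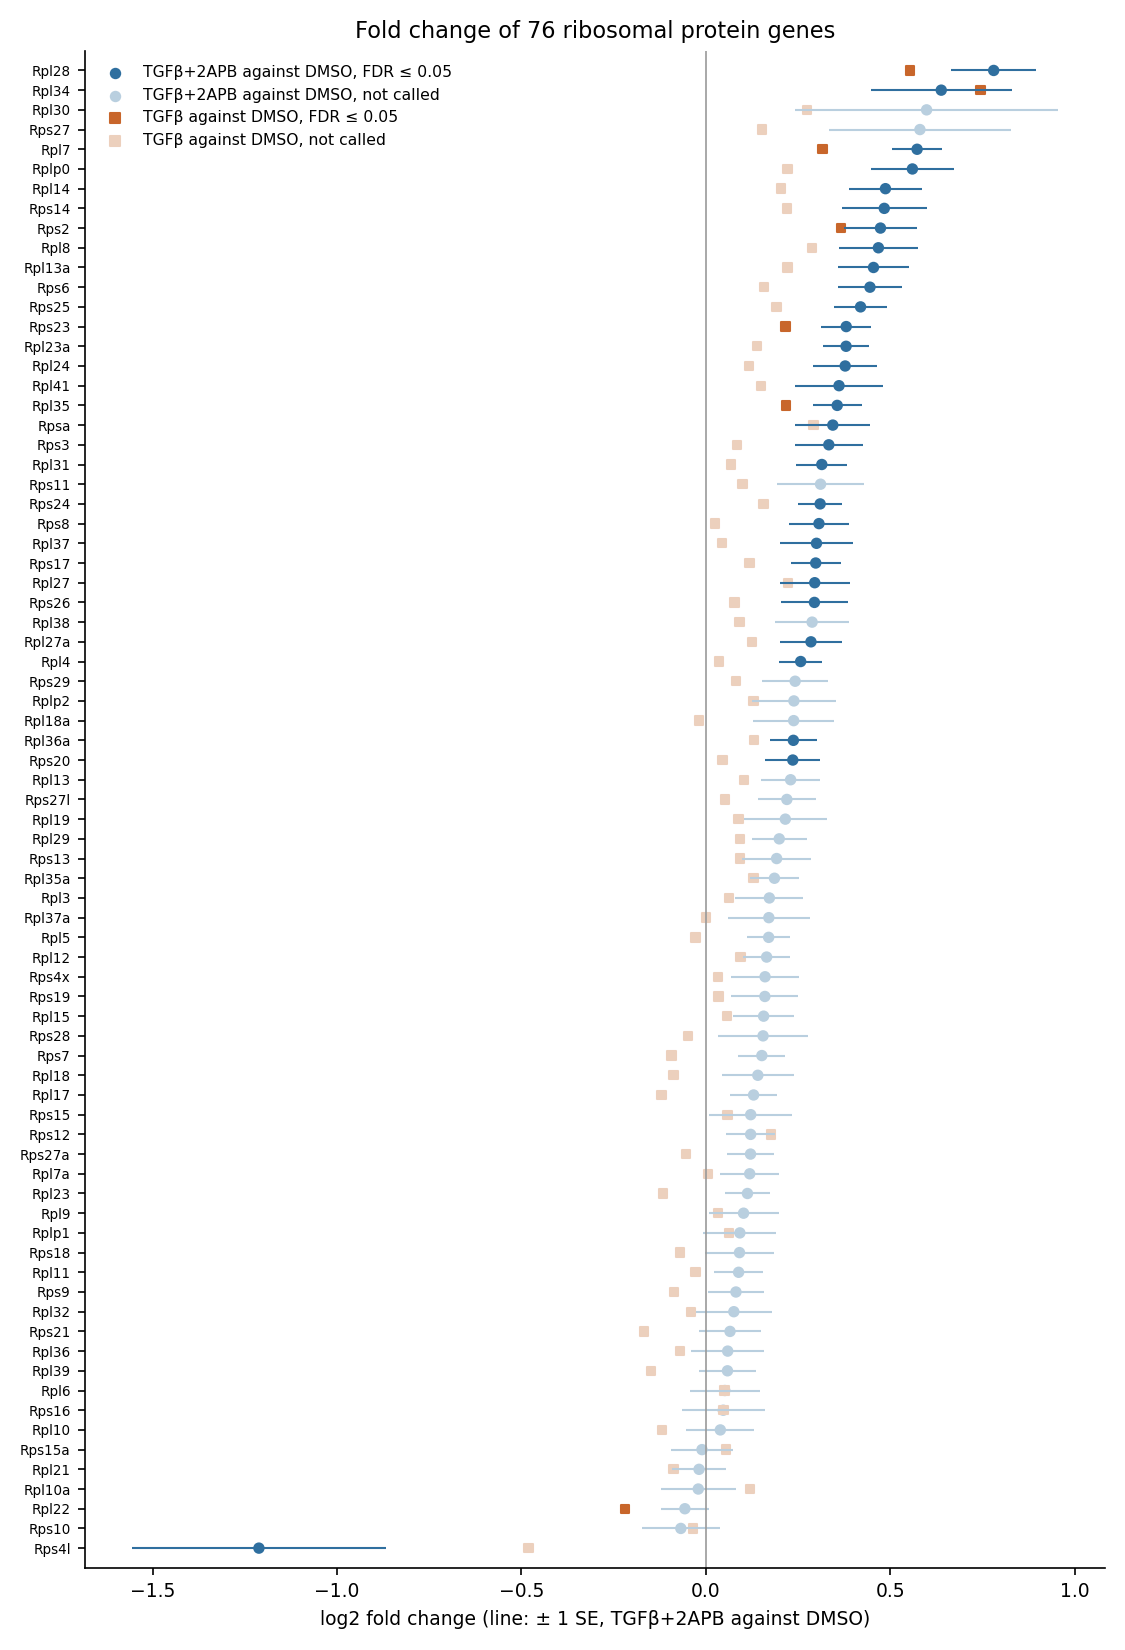
Log2 fold change of 76 of the ribosomal protein genes (rows, ordered by TGF-β+2APB against DMSO). Circles show TGF-β+2APB against DMSO with a line of ± 1 SE and squares show TGF-β against DMSO; dark symbols mark an FDR of 0.05 or less, which 30 circles and 7 squares reach.

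Of 4 proteins at the P stalk, 1 was called higher with TGF-β+2APB over DMSO (25%, against 25.6% of all genes). Rplp0, the base of the stalk, had 161175 and 149576 counts under DMSO, 200610 and 161691 under TGF-β alone, and 227462 and 230800 under the combination. The TGF-β+2APB libraries were the highest 2, and the rise over DMSO was 0.56 ± 0.11 (FDR 0.0082), or 1.47-fold. Its partners Rplp1 (0.09 ± 0.099), Rplp2 (0.24 ± 0.11) and Rpl12 (0.17 ± 0.064), the neighbouring protein at the foot of the stalk, were not called. Rplp1 had 87044 and 82593 counts under DMSO and 88448 and 92425 under the combination. Rplp2 had 28347 and 28220 under DMSO and 33071 and 33689 under the combination, and Rpl12 had 68352 and 65270 in DMSO and 73784 and 76039. The TGF-β+2APB values of these 3 genes were all above those of DMSO. The differences between members of the stalk were not tested.

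Rpl5 and Rpl11 bind the 5S rRNA, and outside the ribosome they bind the p53 regulator MDM2. Rpl5 had 81203 and 79569 counts under DMSO, 78844 and 78873 under TGF-β alone, and 91028 and 89919 under the combination, with a change of 0.17 ± 0.057 over DMSO that just missed the threshold (FDR 0.0503). Rpl11 had 23301 and 22575 counts under DMSO, 23155 and 21850 under TGF-β alone, and 24071 and 24729 under the combination, with a change of 0.09 ± 0.067 (FDR 0.311).

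At the peptide exit tunnel, Rpl4, which forms part of the constriction, had 128514 and 124469 counts under DMSO, 128621 and 130825 under TGF-β alone, and 152429 and 149959 under the combination. It rose by 0.26 ± 0.058 over DMSO (FDR 0.0126), without a called change with TGF-β alone (0.04 ± 0.058). Rpl39, the small protein further down the tunnel, had 45089 and 42874 counts under DMSO, 41798 and 37604 under TGF-β alone, and 44940 and 46689 under the combination, and was called in no comparison. Around the exit, Rpl23a (0.38 ± 0.062, FDR 0.0038), Rpl35 (0.36 ± 0.067, FDR 0.0064) and Rpl31 (0.31 ± 0.070, FDR 0.0119) rose with TGF-β+2APB. Rpl19, in the same region, stood at 0.22 ± 0.11 (FDR 0.160), and Rpl26, the remaining gene of this list, was listed with 0 to 3.90 normalized counts.

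Rpl23a, where proteins that guide or fold the new chain dock, had 48228 and 46700 counts under DMSO, 53180 and 51369 under TGF-β alone, and 61125 and 62455 under the combination, so that the 3 groups followed each other without overlap. Rpl35 had 27606 and 26807, then 32659 and 30650, then 34510 and 35155 counts in the same order. Rpl31 had 23775 and 23307 under DMSO, 25570 and 23800 under TGF-β alone, and 28717 and 29840 under the combination. Each of the 3 genes was highest in the TGF-β+2APB libraries.

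In the small subunit, Rps6, the substrate of the S6 kinases, had 37718 and 35393 counts under DMSO, 43520 and 38042 under TGF-β alone, and 49169 and 50378 under the combination. It rose by 0.45 ± 0.087 over DMSO (FDR 0.0075), with no overlap between the 3 groups. At the mRNA entry, Rps2 rose by 0.47 ± 0.10 (FDR 0.0099), with 138064 and 143632 counts in TGF-β+2APB. Rps3, its neighbour there, rose by 0.33 ± 0.091 (FDR 0.0256), with 76348 and 73185 counts under DMSO, 85406 and 73098 under TGF-β alone, and 91978 and 96469 under the combination.

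Among proteins at the mRNA exit and platform, Rps14 (0.48 ± 0.12, FDR 0.0158), Rpsa (0.34 ± 0.10, FDR 0.0334) and Rps26 (0.29 ± 0.090, FDR 0.0367) rose with TGF-β+2APB. Rps28 changed by 0.16 ± 0.12 (FDR 0.329). Rps14 had 31916 and 31034 counts under DMSO, 40762 and 32570 under TGF-β alone, and 42863 and 45187 under the combination. Its TGF-β replicates lay far apart, with the lower one near DMSO. Rps26 had 21070 and 20063 counts under DMSO and 25589 and 24866 under the combination, and Rps28 had 22434 and 21559 in DMSO and 23714 and 25284. Rps27a, which is made as a fusion with ubiquitin, had 38685 and 37343 counts under DMSO and 41770 and 40932 under the combination, a change of 0.12 ± 0.063 (FDR 0.160).

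**Figure D5:**
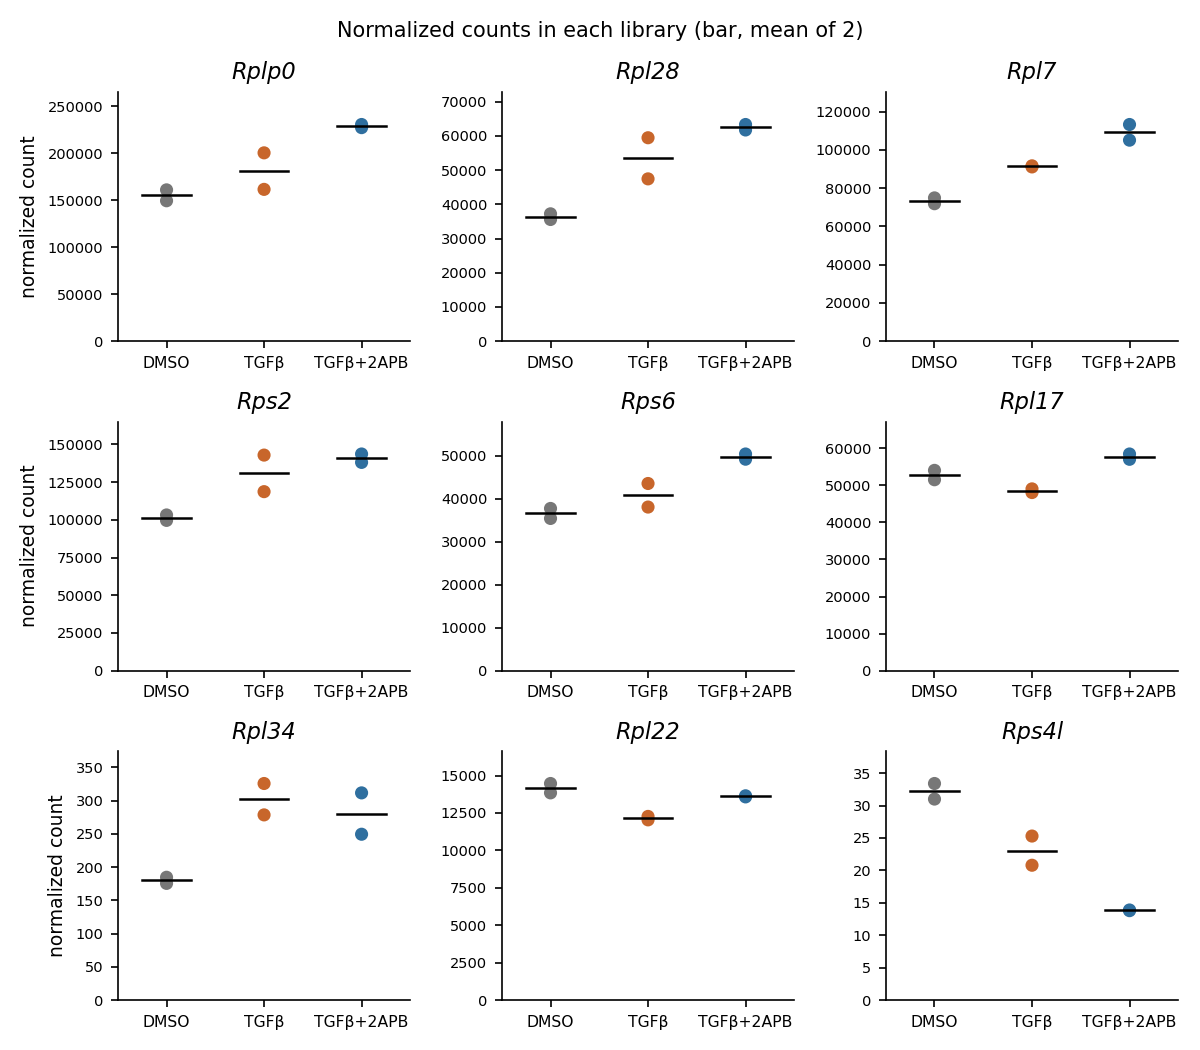
Normalized counts (vertical axes, from 0) of 9 ribosomal protein genes in the 2 libraries of each group (points) with their mean (bar). Rplp0, Rpl28, Rpl7, Rps2 and Rps6 are higher in both TGF-β+2APB libraries than in both DMSO libraries, Rpl22 and Rpl17 are lowest with TGF-β, and Rps4l has 13.9 and 13.8 counts with TGF-β+2APB.

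The 1 member called lower with TGF-β+2APB was the pseudogene Rps4l, a copy related to Rps4x. It had 33.4 and 31.0 normalized counts under DMSO, 25.3 and 20.8 under TGF-β alone, and 13.9 and 13.8 under the combination, and the change was -1.21 ± 0.35 (FDR 0.029). Its partner Rps4x had 97151 and 93694 counts under DMSO and 107773 and 105580 under the combination, a change of 0.16 ± 0.092 (FDR 0.197). Its raw counts were 34, 30, 26, 20, 14 and 14, so that it reached the mean of 20 required of members and of tested genes only through the DMSO and TGF-β libraries, and its change is given as a description. It was not called with DESeq2 (FDR 0.0712) or without any one of the DMSO or TGF-β+2APB libraries (FDR 0.101 to 0.143), and it was not tested with halved counts. The next lowest changes over DMSO, Rps10 (-0.07 ± 0.11), Rpl22 (-0.06 ± 0.066), Rpl10a (-0.02 ± 0.10) and Rpl21 (-0.02 ± 0.073), were within 1 SE of 0.

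Among variant members, Rps27l, the relative of Rps27 that is a p53 target, had 7701 and 7386 counts under DMSO, 8140 and 7502 under TGF-β alone, and 8600 and 8971 under the combination. Its change of 0.22 ± 0.078 over DMSO was not called (FDR 0.0586). Rpl3 (0.17 ± 0.092) and Rpl10 (0.04 ± 0.092), the widely expressed partners of tissue-restricted copies, were not called either. Rpl3 had 105239 and 100103 counts under DMSO and 115852 and 115572 under the combination, and Rpl10 had 78496 and 75819 in DMSO and 79768 and 78829.

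The number of members above DMSO with TGF-β+2APB depended on the libraries kept. It was lower without any one of the DMSO or TGF-β+2APB libraries and higher without either TGF-β library. The share of all genes called in these fits is not given here, so the shifts cannot be ascribed to the members. Over these 6 fits Rpl28 changed by 0.75 to 0.81 and Rpl7 by 0.51 to 0.65. The median over members was between 0.18 and 0.24 in each of them.

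When both TGF-β groups were compared, 1 member was higher with added 2APB by the same rule. This was Rpl17, a protein near the tunnel, with 54034 and 51506 counts under DMSO, 49039 and 48053 under TGF-β alone, and 57020 and 58450 under the combination. The change from TGF-β was 0.25 ± 0.063 (FDR 0.0474), and the TGF-β libraries were the lowest of the 6. At the same FDR, Rpl17 was called in 6 of the 12 other settings that keep every library. The 1 member called higher made up 1.30% of 77, against 6.58% of all genes, and no member was called lower by edgeR, against 10.9% of all genes. At an unadjusted p under 0.05, 24 members were higher (31.2%, against 14.0% of all genes) and 0 lower (against 19.5%). DESeq2 called 27 higher (35.1%, against 12.5% of all genes) and 0 lower (against 15.2%). The median log2 fold change was 0.16 over the members, 0.16 for 60S and 0.17 for 40S, against -0.0037 over all genes, and 70 of 77 members were positive. Over the 3688 other genes of high abundance the median was 0.01. Both TGF-β+2APB libraries lay above both TGF-β libraries for 51 members (66.2%), compared with 27.0% of all genes.

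The highest fitted changes from TGF-β to TGF-β+2APB were those of Rps27 (0.43 ± 0.25, FDR 0.282), Rplp0 (0.34 ± 0.11, FDR 0.0962), Rpl30 (0.32 ± 0.36, FDR 0.568), Rps6 (0.29 ± 0.087, FDR 0.0770) and Rpl14 (0.28 ± 0.099, FDR 0.11). Rpl14, a 60S protein, had 21245 and 20966 counts under DMSO, 26538 and 22072 under TGF-β alone, and 29685 and 29488 under the combination, and it was called against DMSO (0.49 ± 0.099, FDR 0.0088). The lowest were Rps4l (-0.73 ± 0.35), Rpl10a (-0.14 ± 0.10), Rpl34 (-0.11 ± 0.19), Rps15a (-0.06 ± 0.085) and Rps12 (-0.05 ± 0.067), and none of these was called. Rpl10a had 52968 and 43817 counts under TGF-β alone and 43461 and 44363 under the combination, so that 1 TGF-β library stood apart from the other 3.

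The median in this comparison also moved with the TGF-β replicates. It was 0.25 without TGF-β replicate 1 and 0.08 without replicate 2. Without any one of the DMSO or TGF-β+2APB libraries, no member was called, and the median lay between 0.14 and 0.16. The comparisons with DMSO share its 2 libraries, and those with TGF-β share the libraries of TGF-β, so the 3 sets of values are not independent of each other.

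Members with and without the pyrimidine run at the annotated start are set side by side as a description. The 13 members with the run had median log2 fold changes of 0.13 with TGF-β and 0.24 with TGF-β+2APB over DMSO, and 4 of them (Rpl28, Rpl14, Rpl35 and Rps6, all shown above) were called higher in the latter. The 43 matched members without it had medians of 0.07 and 0.19, and 18 were called higher. The 21 members with no promoter entry had medians of 0.06 and 0.24, and 8 were called higher. Of all genes tested, 25.6% were called higher with TGF-β+2APB over DMSO. Rps18, Rplp2 and Rps10 carry the run and were not called. Members with 50% or more of their windows shared with another gene had medians of 0.09 and 0.20 in these comparisons, and the 32 members below that share had 0.06 and 0.24.

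Other parts of the translation machinery changed gene by gene. Of 6 ribosomal protein genes whose symbols fall outside the naming pattern, 1 rose with TGF-β (16.7%, against 21.8% of all genes) and 2 with TGF-β+2APB over DMSO (33.3%, against 25.6%). The latter count was 1 (16.7%) when libraries were scaled by their totals only. Rpl7l1, a nucleolar relative of Rpl7, rose by 0.33 in both (FDR 0.0144 and 0.0108), and Rps3a1 rose by 0.19 with TGF-β+2APB (FDR 0.0495). Fau (0.04), which encodes a ribosomal protein fused to a ubiquitin-like protein, was not called over DMSO.

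Of 17 genes for translation factors and other TOP mRNAs in the table, 1 rose (5.88%, against 21.8% of all genes) and 2 fell (11.8%, against 19.7%) with TGF-β. Eef1g, a subunit of the elongation factor complex that recharges eEF1A, had 88072 and 86744 counts under DMSO, 147646 and 117897 under TGF-β alone, and 157949 and 155294 under the combination. It rose by 0.60 with TGF-β (FDR 0.0083) and by 0.84 with TGF-β+2APB (FDR 0.0017). The initiation factor gene Eif4b had changes of -0.35 (FDR 0.0199) and -0.40 (FDR 0.0093) over DMSO, and Tpt1, which encodes translationally controlled tumor protein, of -0.28 with TGF-β (FDR 0.025). With TGF-β+2APB over DMSO 3 rose (17.6%, against 25.6% of all genes), among them Gnb2l1, the RACK1 protein of the 40S subunit (0.42, FDR 0.0182), and Eef1b2 (0.41, FDR 0.0069), and 2 fell (11.8%, against 27.2%), Eif4b and Eif3f (-0.43, FDR 0.0388). Pabpc1, the cytoplasmic poly(A)-binding protein, was the 1 gene of the 17 called between TGF-β+2APB and TGF-β (0.35, FDR 0.0203), or 5.88% against 6.58% of all genes. The median over the 17 genes was -0.03, 0.05 and 0.11 in the 3 comparisons, and the second of these was -0.02 when libraries were scaled by their totals only.

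Host genes of small nucleolar RNAs have spliced RNAs that also begin with pyrimidines. Of 7 in the table, 4 rose with TGF-β (57.1%, against 21.8% of all genes) and 6 with TGF-β+2APB over DMSO (85.7%, against 25.6%), and these counts were 3 and 4 when libraries were scaled by their totals only. The medians were 0.52 and 0.45, and the median between TGF-β+2APB and TGF-β was 0.12. Snhg5 had 1812 and 1998 counts under DMSO, 3087 and 3750 under TGF-β alone, and 3977 and 3571 under the combination, and it rose by 0.84 (FDR 0.0035) and 0.99 (FDR 0.0013). Gas5 rose by 0.61 (FDR 0.0454) and 0.74 (FDR 0.0199). The lowest called changes were those of Snhg1 with TGF-β (0.52, FDR 0.0231) and Snhg12 with TGF-β+2APB (0.32, FDR 0.0272).

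Among 19 regulators of the mTOR and S6 kinase pathway, 4 rose (21.1%, against 21.8% of all genes) and 6 fell (31.6%, against 19.7%) with TGF-β. With TGF-β+2APB over DMSO 6 rose and 6 fell (31.6% each, against 25.6% and 27.2% of all genes). Myc, a transcription factor that activates ribosomal protein genes, had 5690 and 5640 counts under DMSO, 13096 and 13117 under TGF-β alone, and 14688 and 14505 under the combination. Its change was 1.21 with TGF-β (FDR 0.00013) and 1.37 with TGF-β+2APB (FDR 5.8e-05). The medians of the ribosomal protein genes were 0.08 and 0.22, and the part of Myc in their levels was not tested. Ddit4, an inhibitor of mTOR complex 1, rose by 1.24 and 1.77 over DMSO. Deptor, a subunit that inhibits mTOR, had 3398 and 3182 counts under DMSO, 1040 and 1127 under TGF-β alone, and 218 and 296 under the combination, with changes of -1.60 and -3.68. Rps6ka1, an S6 kinase of the RSK family (-1.28 with TGF-β), and Sesn2, an inhibitor of mTOR complex 1 (-1.35 with TGF-β+2APB), also fell. Between TGF-β+2APB and TGF-β, where 2 rose and 2 fell (10.5% each, against 6.58% and 10.9% of all genes), Ddit4 (0.53, FDR 0.0109) and Eif4ebp1 (0.46, FDR 0.0308) rose, and Deptor (-2.08, FDR 0.0031) and Tsc2 (-0.36, FDR 0.0312) fell.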

How the data were processed

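Per the labels, 6 libraries of NMuMG RNA were grouped by treatment. The authors checked reads with FastQC 0.11.2, aligned them with TopHat2 2.0.13 and counted them per gene with featureCounts, and they deposited raw counts. The submitters' processing notes give mm10 and DESeq2 1.6.1, whereas the methods name hg19. Strand and multiple alignments are not given in the sources used here. All 18512 entries held even values, so that counts may have been doubled, and 25 names had become dates. Depth was 71840570 to 79473182 counts per library, and the study's methods call the 2 replicates of each treatment biological. Whether they were separate cultures is not given in the sources used here, so p-values measure only the spread between these libraries.

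Here, edgeR 4.0.16 (R 4.3.3, limma 3.58.1) with TMM factors fitted all 3 groups in 1 quasi-likelihood model over 13353 genes whose mean normalized count, scaled to the mean library, was 20 or more. FDR values are Benjamini-Hochberg, SE is the log2 fold change divided by the root of F, and the biological coefficient of variation was 17.4%. Tests on simulated data were run first. Python 3.11.15 and pandas 2.3.3 made tables, and matplotlib 3.10.9 plots. Positions and lengths came from GENCODE (GRCm38) and promoters from RefSeq (GRCm38.p6). Alternatives were other scalings, filters, DESeq2 1.42.0, a replicate block, the 4 libraries compared, an FDR of 0.01, halved counts, GC and length corrections (loess, span 0.5) and leaving out each library. The members and lists were chosen with earlier results of these data known. Fold changes are given for the 5 highest and 5 lowest members of each comparison and levels for members of structural role lists and the 5 highest and lowest per kb. From other lists the 2 highest and 2 lowest called genes were taken, and further genes were named after their values were seen. Results for 2 genes are not reported here.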

Additional observations from a re-analysis of the deposited data

How the results depend on the processing

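The median log2 fold change of the ribosomal protein genes stayed positive in all 3 comparisons under every setting that kept the libraries, from 0.05 to 0.11 with TGF-β, 0.16 to 0.27 with TGF-β+2APB over DMSO and 0.13 to 0.20 between TGF-β+2APB and TGF-β. Leaving out each library in turn gave medians of -0.0247 to 0.164, 0.18 to 0.24 and 0.0756 to 0.25, counts of 0 to 42, 2 to 58 and 0 to 56 members higher, and 0 to 12, 0 to 1 and 0 to 2 lower. A lone library was assumed to vary like the other groups.

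With TGF-β, members higher numbered 14 with the GC correction, 17 with the length correction, 13 with DESeq2, 3 in the fit of the 4 libraries compared and 0 at an FDR of 0.01. Members lower numbered 4, 0, 2, 0 and 0 in these settings, and 0 without a filter, with TMM factors from genes outside the members and with either replicate block. With TGF-β+2APB over DMSO, 51 were higher with the length correction, 56 in the fit of 4 libraries and 12 at an FDR of 0.01, and 0 were lower with halved counts (where Rps4l was below the filter), DESeq2, an FDR of 0.01 and either replicate block. Between TGF-β+2APB and TGF-β, 35 were higher with the GC correction, 27 with DESeq2, 8 with the length correction, 7 with RLE scaling, 2 with halved counts and 2 with library size scaling. The count was 0 without a filter, with at least 10 counts in every library, with TMM factors from other genes, in the fit of 4 libraries, at an FDR of 0.01 and with either replicate block. For DESeq2 in this last comparison, 35.1% of the members were called higher, against 12.5% of all genes. For the other settings, including the replicate blocks, the share of all genes called is not given here. Their counts therefore cannot be ascribed to the members, and the cause of the shifts was not tested.

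Whether the replicate numbers pair the samples is not given in the sources used here. The deviations of same-numbered libraries correlated at 0.15, -0.46 and -0.26 between groups. With 2 libraries a group, these values cannot settle the pairing. The replicate block gave 4 higher with TGF-β, 25 with TGF-β+2APB over DMSO and 0 between TGF-β+2APB and TGF-β. A block with the TGF-β+2APB numbers exchanged, chosen after seeing the data, gave 5, 34 and 0. In the 3 comparisons in this order, the replicate block called 3, 4 and 0 of the small nucleolar RNA host genes higher, 3, 6 and 1 of the mTOR and S6 kinase regulators higher and 4, 5 and 1 lower, and 5, 17 and 0 of the mitochondrial ribosomal proteins higher and 4, 8 and 0 lower. Pabpc1 (FDR 0.0508) and Mrps22 (FDR 0.0742) were then not called between TGF-β+2APB and TGF-β. Over the 60 fold changes of single members that were followed through the alternatives, 895 values kept their sign and side of the threshold, 204 lost a call, 28 gained one and 9 reversed, all for uncalled members. With the length correction, changes over DMSO with TGF-β+2APB became 0.0559 for Rpl10a, 0.0583 for Rpl21, 0.024 for Rpl22 and 0.0068 for Rps10. Leaving out 1 library gave -0.0554 to 0.0156 for Rpl10a over DMSO, and between TGF-β+2APB and TGF-β -0.2705 to 0.0047 for Rpl10a, -0.2776 to 0.0165 for Rpl34 and -0.162 to 0.042 for Rps15a. Low members such as Rpl30, with 51.1 to 120.4 counts, had wide errors, and the part of depth and of shared sequence in this was not tested.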

Other observations

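Mitochondrial ribosomal proteins, encoded by 77 tested nuclear genes, build the ribosomes that translate the mRNAs of the mitochondrial genome. With TGF-β 9 of them rose (11.7%, against 21.8% of all genes tested) and 8 fell (10.4%, against 19.7%). With TGF-β+2APB 22 rose (28.6%, against 25.6%) and 9 fell (11.7%, against 27.2%) over DMSO. The medians were 0.01 and 0.10 on the log2 scale. Mrpl36 rose by 0.54 with TGF-β (FDR 0.0045) and by 0.63 with TGF-β+2APB (FDR 0.0017), Mrps27 rose by 0.55 with TGF-β (FDR 0.0188), and Mrps10 by 0.59 with TGF-β+2APB (FDR 0.0012). Mrpl48 had changes of -0.41 (FDR 0.0373) and -0.82 (FDR 0.0022), Mrpl4 of -0.38 with TGF-β (FDR 0.0446), and Mrpl54 of -0.69 with TGF-β+2APB (FDR 0.0057). Between TGF-β+2APB and TGF-β only Mrps22 of this list was called (0.35, FDR 0.0303), with a median of 0.09 over the list. When the libraries were scaled by their totals, the median with TGF-β was -0.01, and 17 genes rose and 13 fell with TGF-β+2APB over DMSO.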
